A study of Mus musculus with 18 samples.

Results

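Alternative exon end events are exons for which a version with another start, another end or both was recorded in the same gene. They were taken from tables of splicing events of peritoneal macrophages, in which each exon has an expression value in FPKM (fragments per kilobase of exon, scaled to the mapped fragments of the library). All rows of the event types AE (alternative exon ends) and XAE (the approximate form of the same event) were kept and matched across 18 libraries by gene, chromosome, start and end. The same exon listed under both types was counted once. This gave 16411 exons, of which 13273 were listed only as AE, 1464 only as XAE and 1674 as both, among 1546228 event rows of 20 kinds in all. A library listed between 8769 and 9771 of these exons. In total 6738 exons were listed in every library and 3064 in a single library, and an exon without a row in a library was taken as 0 there.

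The macrophages came from TLR4-WT mice (labelled WT), from TLR4-K730R mice and from TLR4-K810R mice. The 2 mutant lines are CRISPR knock-in mice in which 1 lysine of the intracellular TIR domain of Toll-like receptor 4, the receptor for bacterial lipopolysaccharide (LPS), is replaced by arginine, which cannot be acetylated. Per the study's methods, cells were washed from the peritoneum of thioglycolate-injected mice and received LPS at 100 ng/ml for 6 h or no LPS (mock), so every group holds elicited cells. There were 3 libraries in each of the 6 groups. The sources give no ages and do not say whether the 3 libraries came from separate animals, so the p-values below measure the spread between these libraries, which may be technical.

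The genes of the macrophage marker list that could be read (Adgre1, Csf1r, Lyz2, Timd4 and Gata6) summed to 10940 to 13950 FPKM in the 9 mock-treated libraries and to 6475 to 9351 in the 9 LPS-treated libraries. Itgam, Cd14 and Cd68 had no first-exon row. Summed B cell, T cell and mast cell markers were at most 1.89, 0.54 and 2.28 FPKM. The neutrophil list (S100a8, S100a9, Ly6g) was at 22.1 to 46.0 FPKM in mock-treated and 167 to 239 in LPS-treated libraries, and its part in the LPS results was not tested. In such bulk samples, fewer cells of a type and less RNA per cell cannot be told apart. Mesothelial and intestinal markers reached 14.3 and 15.1 FPKM, both highest in the third TLR4-K810R mock library. Tlr4 itself was at 4.18 to 14.2 FPKM in all 18 libraries, a level that does not show the substituted codon.

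An exon with alternative ends is joined to the same neighbouring exon at more than 1 position. Moving the donor site changes the 3′ end of the exon, and moving the acceptor site changes its 5′ end. A donor site normally starts the intron with GT and an acceptor site ends it with AG, so when the longer exon is used, the dinucleotide of the inner site becomes part of the exon. A shift that is a multiple of 3 bases keeps the reading frame of a coding exon, while other shifts change it and often bring an early stop codon, which can mark the RNA for nonsense-mediated decay. In macrophages, LPS signals through TLR4 and the kinases of the IRAK and IKK families to NF-κB and interferon regulatory factors, and several of these genes are themselves alternatively spliced.

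The sequences below show how such pairs of ends look in these data. Each runs 5′ to 3′ on the strand of the gene, was read from GENCODE transcripts of the mouse build GRCm38, and has in capitals the bases present only in the longer exon and in lower case the adjoining bases common to both exons. The first set are the 5 pairs whose LPS values are given in detail below and for which the segment is shown in full. Gsdmd (chr15:75864244-75864366, plus strand), Hipk2 (chr6:38730984-38731076, minus strand) and Il18bp (chr7:102017635-102017664, minus strand) differ at the acceptor, and F10 (chr8:13053452-13053473, plus strand) and Fcgr2b (chr1:170963325-170963420, minus strand) at the donor.
Gsdmd, 111 bases: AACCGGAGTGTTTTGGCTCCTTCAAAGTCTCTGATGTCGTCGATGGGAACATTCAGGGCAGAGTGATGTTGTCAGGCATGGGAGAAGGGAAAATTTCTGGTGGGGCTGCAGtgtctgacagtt
Hipk2, 81 bases: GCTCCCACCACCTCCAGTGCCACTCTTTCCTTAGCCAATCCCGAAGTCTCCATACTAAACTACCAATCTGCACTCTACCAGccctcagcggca
Il18bp, 27 bases: AAGCTGACTGCTGCCTGCCCTTCCCAGaag
F10, 10 bases: aggcgattcaagGTGAGGGTAG
Fcgr2b, 84 bases: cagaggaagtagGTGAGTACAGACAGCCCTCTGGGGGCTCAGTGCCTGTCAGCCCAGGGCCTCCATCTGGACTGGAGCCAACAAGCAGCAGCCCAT

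The next set belongs to the TLR4 signalling genes. The Ikbke pair (chr1:131275707-131275790, minus strand) differs by 72 bases at the donor. Of the Irak3 pair, which differs by 52 bases at the donor, the first 18 bases of the segment are shown (chr10:120165075-120165104, minus strand), since they hold an in-frame stop.
Ikbke: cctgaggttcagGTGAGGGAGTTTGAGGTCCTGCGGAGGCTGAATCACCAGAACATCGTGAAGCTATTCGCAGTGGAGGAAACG
Irak3: caacgtttccagGTAAATGACCTGAGAGCT

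The last set are 4 acceptor pairs that differ by 3 bases, the most frequent distance, in which the last 3 bases of the intron are kept or removed. They lie at chr6:123267992-123268006 (Clec4d, plus strand), chr11:120479087-120479101 (Hgs, plus strand), chrX:142351604-142351618 (Acsl4, minus strand) and chr7:4684555-4684569 (Hspbp1, minus strand).
Clec4d: GAGgtacttggacct
Hgs: CAGtaccagaatggg
Acsl4: AAGaaaaacgctatg
Hspbp1: CAGaccttcaagagt

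Over all AE and XAE exons, 7224 pairs in 4059 genes shared 1 end exactly and differed at the other, 4360 at the acceptor and 2864 at the donor. The ends lay a median of 57 bases apart (quartiles 25 and 139). A distance of 3 bases was the most frequent, with 154 pairs, of which 150 were acceptor pairs, followed by 12 bases with 150 pairs and 15 bases with 146. GT stood at the inner end of 94.4% of the 2566 donor segments with sequence, against 5.93% of all dinucleotides in these segments, and AG at the inner end of 98.1% of the 3988 acceptor segments, against 7.66% of all dinucleotides. The printed donor segments all begin with GT and the acceptor segments all end with AG.

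Where the segment between the ends lay in coding sequence, 46.3% of 3969 distances were a multiple of 3, and elsewhere 34.8% of 3255. Among the 1084 pairs with enough expression in every library to be followed, the corresponding values were 64.0% of 675 and 32.0% of 409. The use of the ends differed between these classes. In mock-treated macrophages the less used end carried a median of 13.3% of the pair's FPKM in the 432 in-frame coding pairs, 4.33% in the 243 coding pairs out of frame, and 4.68% in the 409 pairs outside coding sequence. The longer exon was the usual one in coding pairs, with a median share of 69.6% in frame and 92.1% out of frame, and the rarer one elsewhere, with 7.44%. These medians were 69.3%, 93.0% and 6.75% with LPS. They describe pairs that passed the expression filter and carry no test.

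**Figure D1:**
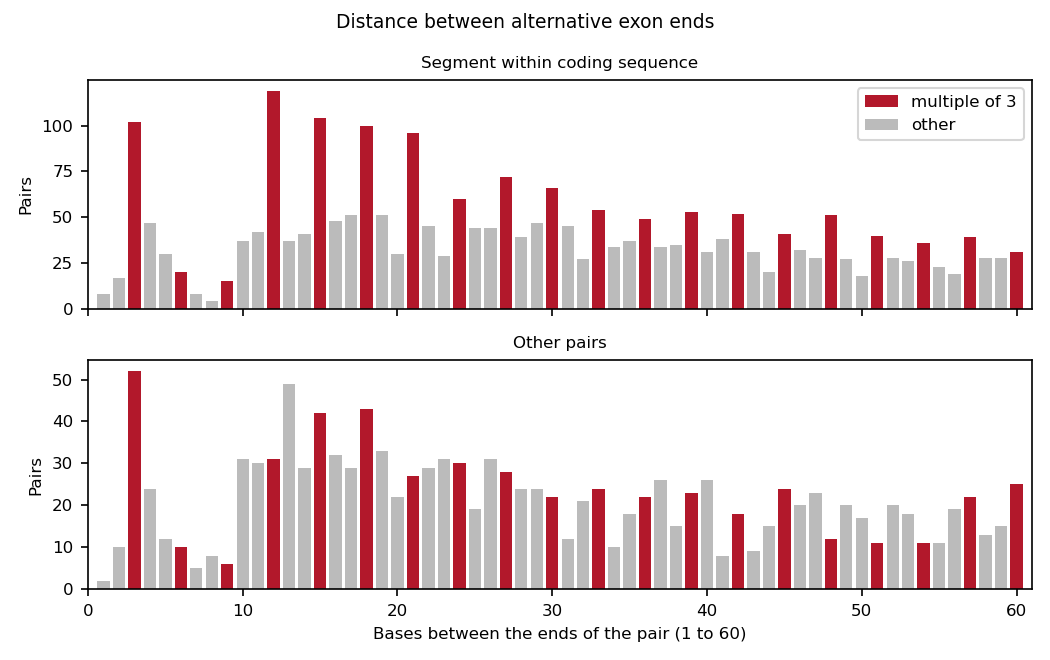
Number of exon pairs (vertical axis) at each distance between their ends from 1 to 60 bases (horizontal axis), for segments within coding sequence (top) and other pairs (bottom), with multiples of 3 in red. In the top panel the bars at 3, 12, 15, 18 and 21 bases stand above both neighbours and those at 6 and 9 bases do not. There 46.3% of all distances are multiples of 3, and the 3-base bar stands out in both panels.

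Both ends were in use in many of the 3-base pairs. In the 43 tested pairs of this distance the less used end carried a median of 16.9% of the FPKM in mock-treated cells, and in 65.1% of them it carried 10% or more. The longer form of Clec4d, a C-type lectin receptor of myeloid cells, made up 86.7 to 100% (median 89.4%) of the pair in mock-treated and 86.0 to 90.4% (median 88.0%) in LPS-treated libraries. For Hgs, an endosomal sorting protein, the longer form made up 11.5 to 72.3% (median 35.0%) and 11.5 to 47.9% (median 32.7%). The ranges of the treatments overlapped for both genes.

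Acsl4, which activates polyunsaturated fatty acids, had 50.6 to 80.8% (median 69.2%) of the longer form in mock-treated and 62.3 to 83.7% (median 70.1%) in LPS-treated cells. Hspbp1, a cochaperone of Hsp70, had 20.0 to 50.3% (median 43.5%) and 17.4 to 52.02% (median 39.9%). None of the 4 pairs passed the test between treatments, with limma adjusted p-values of 0.453 (Clec4d), 0.927 (Hgs), 0.589 (Acsl4) and 0.958 (Hspbp1). These 4 were picked for their level and their use of both ends after the values were seen.

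To compare exons between groups, the FPKM of an exon was set against the summed FPKM of the first exons of its gene, here called the exon ratio, which is near 1 when nearly all transcripts of the gene carry the exon. A test was possible for 5338 exons of 2488 genes, namely those within the gene's span, at 1 FPKM or more in at least 3 libraries, in genes at 2 FPKM or more in all 18. Of these, 4417 were listed in every library. A GENCODE exon with the same start and end existed for 93.5%, and 79.5% were fully coding, 16.3% partly coding and 4.27% non-coding. The median exon ratio was 0.863 with quartiles at 0.26 and 0.985. Exons of protein-coding GENCODE transcripts (4534) had median ratios of 0.926 in mock-treated and 0.927 in LPS-treated cells, and exons found only in transcripts annotated for nonsense-mediated decay (207) of 0.0400 and 0.0371.

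The median ratio over the 5338 tested exons, with unlisted ones at 0, was close in all groups and was not tested. It was 0.846 ± 0.0034 in TLR4-WT mock, 0.850 ± 0.00026 in TLR4-WT LPS, 0.842 ± 0.0042 in TLR4-K730R mock, 0.849 ± 0.0062 in TLR4-K730R LPS, 0.851 ± 0.016 in TLR4-K810R mock and 0.846 ± 0.010 in TLR4-K810R LPS (mean ± SD, n = 3 each). Over all 18 libraries it ranged from 0.833 to 0.864. The 3 TLR4-WT mock libraries (0.8433, 0.8495 and 0.8438) lay below the 3 TLR4-WT LPS libraries (0.8504, 0.8499 and 0.85). In 15.2% of the tested exons the ratio passed 1.05 in some library, so it is not a strict share of the gene's transcripts. The cause was not tested.

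The first comparison asked which exons with alternative ends changed with LPS, averaged over the 3 genotypes. The log2 exon ratio, with a pseudocount of 1 FPKM on both parts, was tested with limma over 23500 splice events of all kinds except first and last exons, at an adjusted p below 0.01. The test called 75 AE and XAE exons in 66 genes, 34 higher and 41 lower with LPS. This was 1.41% of those tested, against 1.77% of splice events of all kinds (0.796% higher and 0.974% lower), so exons with alternative ends were not called more often than other events. The median log2 difference over the 5338 exons was 0.0026.

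The call depended on how exons at low levels were treated. With a fixed pseudocount, an exon near 0 FPKM moves on this scale whenever its gene moves. Of the 75 called exons 49 (65.3%) lay in genes whose level changed 2-fold or more, against 18.7% of all tested exons. Of the 34 higher exons, 18 lay in genes that fell at least 2-fold, and of the 41 lower exons, 26 lay in genes that rose at least 2-fold. For 29 of the 75 the median ratio was below 0.05 in both treatments. In 43 of the 75, against 13.04% of all tested exons, fewer than 3 libraries of 1 treatment reached the minimum of 1 FPKM, so these exons entered the test through the other treatment and their calls are no independent support for a change. A second fit, chosen after seeing the data, used log2 of the ratio plus 0.05, an offset that scales with the gene. It called 21 exons, 20 of them shared with the first fit in the same direction, 8 higher and 12 lower in 18 genes. Of these 20, 6 entered through 1 treatment, namely Cd38, Il18bp and Ankrd28 through LPS-treated and Cep250, Gm21982 and 2610001J05Rik through mock-treated libraries. The exons called in both fits are described first, and those named because of this overlap were named after their values were seen.

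**Figure D2:**
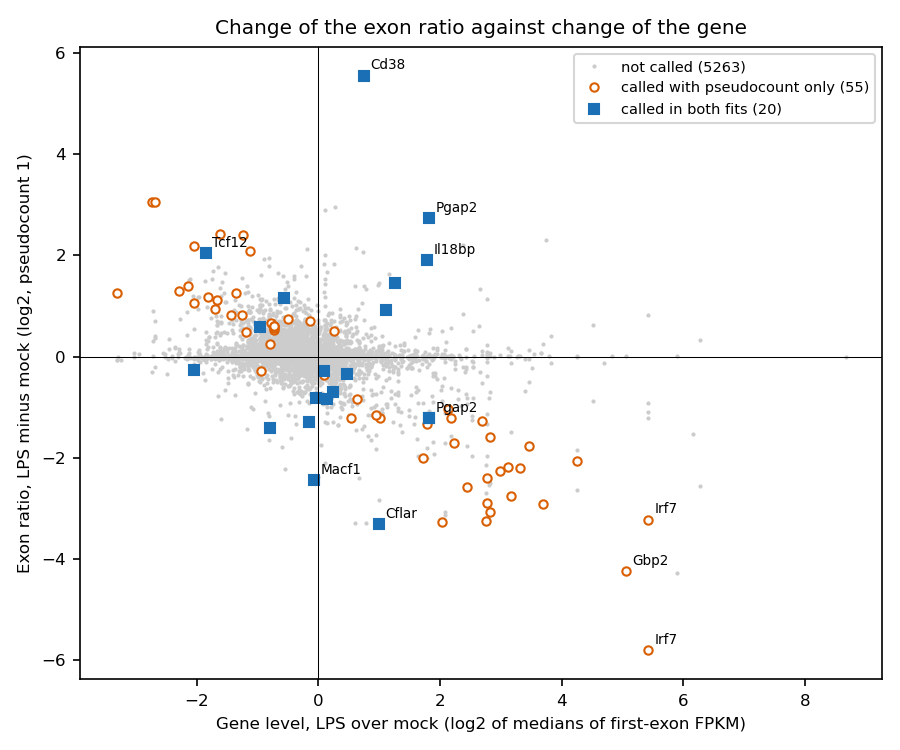
Change of the exon ratio (vertical axis, log2 difference LPS minus mock with a pseudocount of 1) against the change of the gene (horizontal axis, log2 of the LPS over the mock median of first-exon FPKM) for 5338 exons. Exons called with the pseudocount only (open circles, 55) run from the upper left to the lower right, that is, opposite to their gene, while the 20 called in both fits (blue squares) lie at gene changes of either sign.

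Among the exons called higher, the 41-base exon of Il18bp (chr7:102017597-102017637, GRCm38, minus strand, non-coding in GENCODE) did not overlap between treatments. Il18bp encodes the soluble antagonist of interleukin 18. Its ratio was 0.0311 to 0.119 (median 0.0382) in the 9 mock-treated and 0.131 to 0.963 (median 0.8) in the 9 LPS-treated libraries. The fitted log2 difference was 1.90 ± 0.25 (SE, limma), given with no p because the exon stayed below 1 FPKM in all 9 mock-treated libraries and entered the test through the others. All 3 TLR4-WT LPS libraries (0.946, 0.915, 0.582) and all 3 TLR4-K730R LPS libraries (0.823, 0.578, 0.963) were high, and the TLR4-K810R LPS libraries spread over 0.408, 0.131 and 0.8. The gene itself went from a median of 7.76 to 26.8 FPKM.

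Pgap2, which acts on the lipid part of GPI anchors, had 1 exon that rose and 2 that fell. The exon at chr7:102231266-102231425 (160 bases, plus strand, partly coding, in 1 GENCODE transcript) had ratios of 0 to 0.0946 (median 0.0553) in mock-treated and 0.363 to 0.696 (median 0.521) in LPS-treated cells, a log2 difference of 2.74 ± 0.26 (adjusted p = 5.19e-05). The exon at chr7:102226271-102226445, present in 16 GENCODE transcripts, went from 0.706 to 0.984 (median 0.843) down to 0.189 to 0.602 (median 0.338), a difference of -1.21 ± 0.18 (adjusted p = 0.00179). The third, a non-coding exon at chr7:102223379-102223490, had a median ratio of 0.71 in mock-treated and 0.282 in LPS-treated cells. The first 2 of these did not overlap between treatments, and the gene rose from a median of 24.0 to 84.8 FPKM.

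Tcf12, a basic helix-loop-helix transcription factor, moved in the opposite direction to its gene. Its 97-base exon (chr9:72110738-72110834, minus strand, in 9 GENCODE transcripts) had ratios of 0.0712 to 0.485 (median 0.145) in mock-treated and 0.512 to 1 (median 0.892) in LPS-treated libraries, with a log2 difference of 2.04 ± 0.31 (adjusted p = 0.00187). The summed first-exon level fell from a median of 19.1 to 5.28 FPKM. The 9 LPS-treated values all lay above the 9 mock-treated values.

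Smaller rises were called for Gsdmd, Tep1 and Tmbim4. Gsdmd encodes gasdermin D, the pore-forming protein of pyroptosis, and its short exon version (82 bases, chr15:75864355-75864436) had ratios of 0.00514 to 0.201 (median 0.0636) in mock-treated and 0.159 to 0.273 (median 0.24) in LPS-treated cells. In TLR4-K730R cells, where the 3 mock values were 0.00746, 0.0103 and 0.00514 and the LPS values 0.253, 0.273 and 0.24, the difference was also called within the genotype (log2 2.75 ± 0.39, adjusted p = 0.00352). The 105-base exon of Tep1, a telomerase-associated protein, went from a median of 0.317 to 0.526, and the 94-base exon of Tmbim4, a Golgi protein, from 0.118 to 0.327. The treatments overlapped for all 3 exons.

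Cd38, the NAD-consuming ectoenzyme, had the largest fitted difference among the exons called higher but an uncertain ratio. Its 225-base event (chr5:43868896-43869120, plus strand) matches no GENCODE exon at both ends. It was not listed in any of the 9 mock-treated libraries and had 22.2 to 169 FPKM (median 99.1) in the LPS-treated ones. Its ratio was 0.665 to 14.3 with LPS, at a first-exon sum of 6.56 to 100.4 FPKM. Summed over last exons, the gene stood at 131 to 187 FPKM with LPS and at 6.60 to 12.04 without. The fitted log2 difference of 5.55 ± 0.52 depends on the pseudocount, and no p is given because the exon met the minimum only through the LPS-treated libraries.

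**Figure D3:**
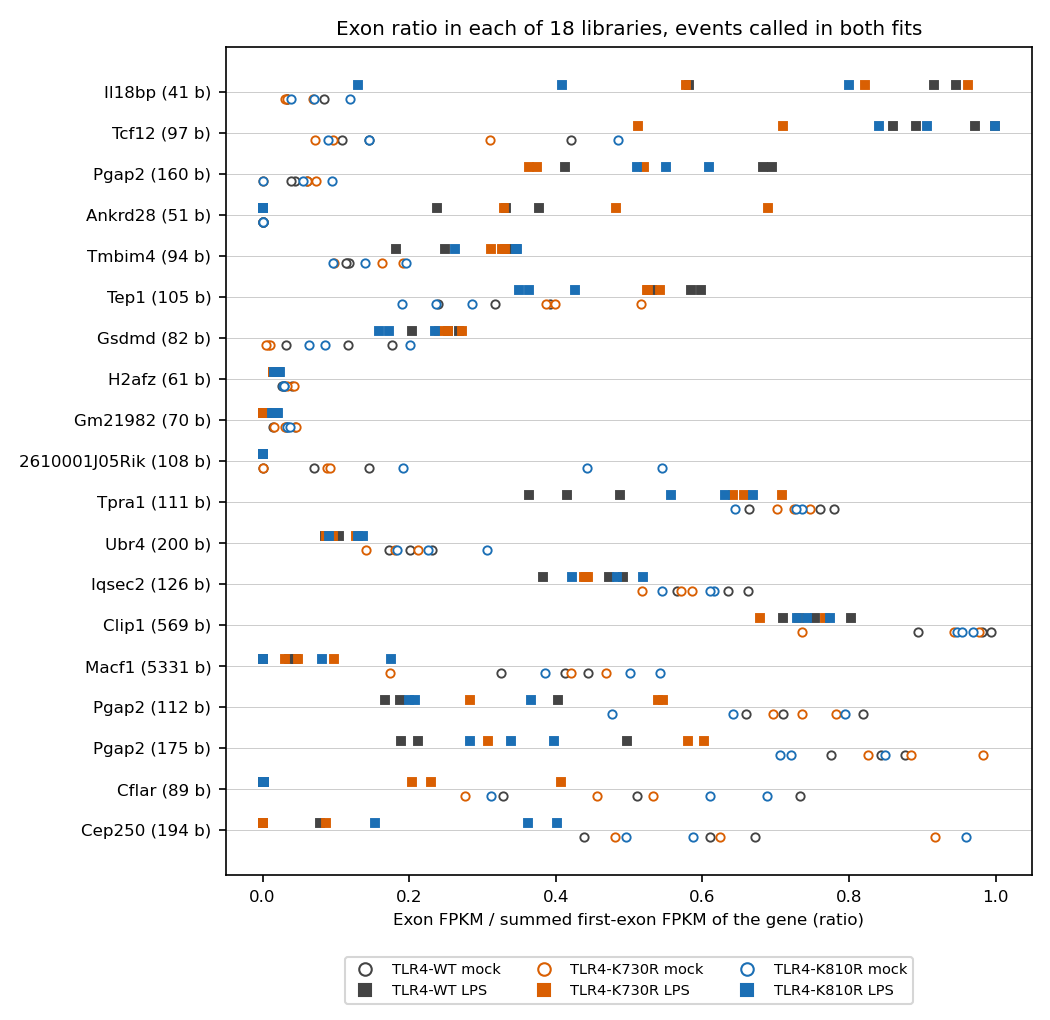
Exon FPKM divided by the summed first-exon FPKM of the gene (horizontal axis, ratio) in each of 18 libraries for 19 of the 20 exons called in both fits (vertical axis, gene and exon length in bases); Cd38 is left out because its ratio reaches 14.3. Open circles are mock-treated and filled squares LPS-treated libraries, coloured by genotype; Il18bp at the top is low in all mock-treated libraries, and Cep250 at the bottom is low in most LPS-treated ones.

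Among the exons called lower was a 194-base coding exon of Cep250 (chr2:155975671-155975864, plus strand, in 4 GENCODE transcripts). The gene encodes a protein of the linker between centrioles. The exon is shown whole, since its ratio reached 0 in 4 LPS-treated libraries.
Cep250: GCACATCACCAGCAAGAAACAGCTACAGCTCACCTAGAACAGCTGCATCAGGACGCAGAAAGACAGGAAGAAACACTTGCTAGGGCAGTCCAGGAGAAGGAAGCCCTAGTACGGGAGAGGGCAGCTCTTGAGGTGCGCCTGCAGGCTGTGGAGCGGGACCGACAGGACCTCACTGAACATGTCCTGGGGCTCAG
The ratio was 0.439 to 0.959 (median 0.61) in mock-treated and 0 to 0.402 (median 0.0785) in LPS-treated cells, without overlap. The fitted log2 difference was -1.42 ± 0.19, given with no p because only 2 LPS-treated libraries reached 1 FPKM. The 3 TLR4-WT LPS libraries had 0, 0 and 0.0785, the TLR4-K730R ones 0.0869, 0 and 0, and the TLR4-K810R ones 0.153, 0.402 and 0.362.

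Macf1, a crosslinker of actin and microtubules, had lower ratios of its 5331-base coding exon (chr4:123471007-123476337, minus strand) with LPS, at a nearly constant gene level. The ratio was 0.173 to 0.542 (median 0.421) in mock-treated and 0 to 0.175 (median 0.0453) in LPS-treated libraries, a log2 difference of -2.45 ± 0.31 (adjusted p = 0.000502), while the gene had medians of 35.1 and 33.4 FPKM. Only the highest LPS value and the lowest mock value met. Clip1, a microtubule plus-end protein, had a 569-base exon whose median ratio went from 0.955 to 0.743, and Iqsec2, an exchange factor for ARF GTPases, a 126-base exon that went from 0.586 to 0.444. Both exons are coding.

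Ubr4, a ubiquitin ligase, had a 200-base event that matches no GENCODE exon (chr4:139365195-139365394, plus strand). Its ratio was 0.141 to 0.307 (median 0.201) in mock-treated and 0.0853 to 0.137 (median 0.0961) in LPS-treated cells, without overlap (log2 -0.84 ± 0.13, adjusted p = 0.00218). The fall was seen only against first exons (medians of 33.4 and 36.8 FPKM). The event itself stayed close to the last-exon sum, with medians of 6.86 and 6.77 FPKM in mock-treated and 4.09 and 4.12 in LPS-treated libraries. H2afz, which encodes the histone variant H2A.Z, had a minor 61-base exon at a median ratio of 0.0291 without and 0.0186 with LPS, again without overlap (log2 -0.69 ± 0.09, adjusted p = 0.00069). A minor exon of Gm21982 had median ratios of 0.0329 without and 0.00691 with LPS. An exon of 2610001J05Rik was at 0 in all 9 LPS-treated libraries and uneven among the mock-treated ones, at 0, 0.0696 and 0.146 for TLR4-WT, 0.088, 0 and 0.0927 for TLR4-K730R, and 0.545, 0.443 and 0.191 for the K810R line. Within TLR4-WT its log2 difference was -0.47 ± 0.40 (adjusted p = 0.823).

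In total 18 tested exons (0.337%) had ratios that did not overlap between the 9 mock-treated and 9 LPS-treated libraries, against 0.489% of all splice events. By the rule for named exons this added 2 called ones that the second fit did not call. Ctsd, the lysosomal protease cathepsin D, had a 105-base exon at a ratio of 0.00156 to 0.00266 in mock-treated and 0.00337 to 0.00436 in LPS-treated cells (log2 0.83 ± 0.08, adjusted p = 9.01e-05), while the gene fell from a median of 5316 to 1952 FPKM. Tnfrsf11a, the receptor RANK, had a 95-base coding exon at 0.838 to 1.04 and 0.579 to 0.771 (log2 -0.28 ± 0.05, adjusted p = 0.00731). This separation holds for first exons as the denominator. Against the last-exon sum the exon had medians of 12.03 and 11.96 FPKM in mock-treated and 5.01 and 4.78 in LPS-treated libraries. The TLR4-WT LPS libraries scattered, at 5.79, 7.78 and 5.01 against 7.50, 7.44 and 3.64 FPKM.

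Within each genotype the same test called fewer exons. In TLR4-WT macrophages 6 exons passed (1 higher, 5 lower, 0.112% of those tested, against 0.179% of all splice events, 0.0383% higher and 0.14% lower). In TLR4-K730R 15 passed (8 higher, 7 lower, 0.281% against 0.349%, of which 0.115% higher and 0.234% lower), and in TLR4-K810R 6, all lower (0.112% against 0.183%, of which 0.00851% higher and 0.174% lower). Of these, 3, 5 and 1 were also called by the second fit. These 3 counts do not compare the genotypes, since the comparisons of the LPS responses themselves called no exon.

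In TLR4-WT and TLR4-K810R an exon of Cflar was lower with LPS (values below). An Ifi35 exon was called lower in TLR4-WT, TLR4-K730R and TLR4-K810R, at log2 differences of -1.72, -1.90 and -3.03, but it stayed below 1 FPKM in all 9 mock-treated libraries and entered through the others. In TLR4-K730R its ratio itself was not lower, at 0.0128, 0.00758 and 0.0075 in mock-treated and 0.0118, 0.0166 and 0.0165 in LPS-treated libraries. A 291-base Irf7 exon was called in TLR4-K730R, where it had 4.83, 6.25 and 1.61 FPKM in mock-treated and 0 in LPS-treated libraries, and in TLR4-K810R, where it was nearly absent in both treatments. This exon entered the test through 4 mock-treated libraries, 3 of them of TLR4-K730R, so these calls are no independent support for a change. For TLR4-K810R it had 0.00316, 0.000857 and 0.00981 FPKM in mock-treated and 0 in LPS-treated libraries, while the gene went from 18.3, 14.3 and 13.02 to 649, 713 and 782 FPKM. In TLR4-WT a 111-base coding exon of Tpra1 was also lower (0.76, 0.663 and 0.78 in mock-treated, 0.488, 0.363 and 0.416 in LPS-treated libraries, adjusted p = 0.00631). The difference of this exon was -0.06 ± 0.09 for TLR4-K730R, with -0.13 ± 0.09 for the K810R line (adjusted p = 0.938 and 0.757). The difference from the TLR4-WT response was 0.56 ± 0.13 and 0.50 ± 0.13 and did not pass (adjusted p = 0.668 and 0.75). In TLR4-K730R the called exons without overlap included an Itgb5 exon that went from 2.03e-05, 2.25e-05 and 1.93e-05 to 0.393, 0.113 and 0.276, given with no p because only 1 of the 9 mock-treated libraries reached 1 FPKM. Itgb5 is an integrin subunit, and its first-exon level was lower in each TLR4-K730R LPS library (9.90, 13.8, 13.2 FPKM) than in each mock library (96.9, 70.9, 89.0 FPKM).

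The 251-base version of a Tpra1 exon reached 1 FPKM in 2 mock-treated and 3 LPS-treated libraries, and its call in TLR4-K730R is given with no p. It had ratios there of 0.00127, 0.000772 and 0.000705 in mock-treated and 0.0947, 0.0924 and 0.0199 in LPS-treated libraries. The 471-base exon of Fbxl8, an F-box protein, was at 1 in all 3 mock libraries and at 0.729, 0.693 and 0.757 with LPS (adjusted p = 0.00256).

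No exon of the TLR4 pathway genes passed the test between LPS and mock. Of 35 genes on the TLR4 signalling list, 9 had 24 tested exons, and limma called 0 in either direction, at a median log2 difference of -0.02. Of all tested exons 1.41% were called, as were 1.77% of all splice events, so 0 of 24 does not set these genes apart. The median ratio moved by 0.1 or more in 7 of the 24, against 17.01% of all tested exons. The 6 exons with the highest gene levels belong to Ikbke, Irak3 and Ikbkg. Ikbke encodes the kinase IKKε, which phosphorylates interferon regulatory factors, and its level rose from a median of 54.2 to 130 FPKM with LPS. Its 141-base and 69-base exon versions, which differ by the 72 bases printed above, were used almost equally. The longer version had ratios of 0.468 to 0.571 in mock-treated and 0.483 to 0.551 in LPS-treated libraries, and the shorter one of 0.431 to 0.536 and 0.45 to 0.549 (adjusted p = 0.544 and 0.81). A further Ikbke exon of 97 bases had median ratios of 0.888 and 0.881.

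Irak3 encodes IRAK-M, a kinase-dead inhibitor of TLR signalling, and rose from a median of 12.7 to 80.1 FPKM. Its 171-base exon (chr10:120165041-120165211, minus strand) had ratios of 0 to 0.295 (median 0.0348) in mock-treated and 0.286 to 0.396 (median 0.307) in LPS-treated libraries. The 119-base version, which ends 52 bases earlier, had 0.516 to 0.975 (median 0.938) and 0.602 to 0.722 (median 0.695). Neither exon passed the limma test, with adjusted p = 0.109 for the 119-base version. No p is given for the 171-base version, which met the exon minimum through LPS-treated libraries (21.0 to 28.9 FPKM). Among mock-treated ones it reached 1 FPKM only in the third TLR4-K730R (3.41) and the third TLR4-K810R library (2.92). In the mock-treated libraries the longer version was at 0.257 in the third TLR4-K730R and at 0.295 in the third TLR4-K810R library, and at or below 0.051 in the other 7.

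The share of the longer Irak3 exon in the pair was 5.03, 5.19 and 3.52% in TLR4-WT mock and 30.6, 30.03 and 30.02% in TLR4-WT LPS libraries. It was 2.71, 0 and 25.3% in TLR4-K730R mock and 32.6, 28.7 and 32.0% with LPS. In TLR4-K810R it was 2.22, 1.34 and 29.6% in mock and 34.5, 28.4 and 39.7% in LPS libraries. The LPS-treated libraries lay in a narrow band, and 1 mock library reached it. Averaged over the genotypes the pair was called with the pseudocount (log2 1.66 ± 0.35), but not with the scaling offset. No p is given, because the longer exon met the exon minimum through the LPS-treated libraries. The longer exon occurs in GENCODE only in a transcript annotated for nonsense-mediated decay, in which the segment adds 1 coding base before the in-frame stop TAA.

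Ikbkg encodes NEMO, the regulatory subunit of the IκB kinase complex. Its 113-base exon (chrX:74427762-74427874, plus strand) had ratios of 0.448 to 0.711 in mock-treated and 0.256 to 0.721 in LPS-treated cells, with medians of 0.516 and 0.558. The treatments overlapped, with 2 LPS-treated libraries (0.365 and 0.256) below every mock-treated one (adjusted p = 0.918).

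Of the other gene lists, only those of LPS-induced and interferon-stimulated genes held called exons. The interferon list had 31 tested exons in 15 genes, of which 4 were lower (Irf7 with 2 exons, Gbp2 and Ifi35), at a median log2 difference of -0.01. The cytokine list had 6 exons in 3 genes with 1 lower, in Cd40. Of all tested exons 0.768% were called lower, as were 0.974% of all splice events. The 291-base Irf7 exon entered the test through mock-treated libraries and the Gbp2, Ifi35 and Cd40 exons through LPS-treated ones, so 4 of these 5 calls are no independent support for a change. None of the 5 was called with the scaling offset, and all lay in genes whose level rose strongly. Irf7, the interferon regulatory factor of the type I interferon response, went from a median of 18.3 to 782 FPKM, and its 291-base exon (chr7:141264493-141264783) from a median ratio of 0.000753 to 0 in all 9 LPS-treated libraries. A second Irf7 exon of 136 bases, non-coding in GENCODE, had median ratios of 0.00751 and 0.00336. Gbp2, a guanylate-binding GTPase of a family with similar copies, so that its reads are uncertain, had a 70-base exon at median ratios of 0.0137 and 0.00129. Ifi35 had a 333-base exon at 0.0146 and 0.0109. For Cd40, the costimulatory receptor, the ratio itself was higher with LPS (0.00164 and 0.0291 in the median), and the sign of its log2 difference turned from -1.77 to 0.60 with the scaling offset.

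The remaining lists had 0 called exons in the limma test. With 1.41% of all tested exons called, a count of 0 does not set lists of this size apart. They were SR proteins and their kinases (36 exons in 16 genes), hnRNPs (39 in 11), core spliceosome (55 in 18), RNA decay (19 in 7), NF-κB subunits and inhibitors (4 in 1) and acetylation enzymes (16 in 9). Their median log2 differences ran from -0.05 to 0.01. The median ratio moved by 0.1 or more in 908 of all 5338 tested exons, and in 5 of the 36 exons of SR proteins, 8 of the 39 of hnRNPs and 8 of the 55 of the core spliceosome.

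A direct measure of the choice between 2 ends is the share of the longer exon in the summed FPKM of the pair. Pairs were tested at 2 FPKM or more in every library, with each exon at 1 FPKM or more in at least 3. For these 1084 pairs limma called 31 (2.86%) between LPS and mock over the 3 genotypes, 16 (1.48%) toward the longer and 15 (1.38%) toward the shorter exon. How many of the 31 entered through 1 treatment was not counted. Of the 31, 8 moved by 10 percentage points or more in the median and 15 by less than 2 points. Among all 1084 tested pairs 223 moved by 10 points or more. Only 1 of the 31 had shares without overlap between treatments, as did 3 (0.277%) of all tested pairs. With the offset of 0.05 of the pair's FPKM, 2 pairs were called, Il18bp and Gsdmd, both among the 31.

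For Il18bp the longer exon has 27 more bases at the acceptor. It made up 88.1 to 96.9% (median 96.2%) of the pair in mock-treated and 3.71 to 87.0% (median 41.8%) in LPS-treated libraries. The log2 difference was -3.70 ± 0.63, given with no p because the shorter exon met the exon minimum only through LPS-treated libraries. In mock-treated ones it had at most 0.938 FPKM. All LPS values lay below all mock values. In TLR4-WT the shares were 96.6, 96.6 and 91.6% without and 5.41, 8.43 and 41.8% with LPS. In TLR4-K730R they were 96.9, 96.6 and 93.1% and then 49.5, 42.1 and 3.71%, and in TLR4-K810R 96.2, 93.0 and 88.1% and then 59.1, 87.0 and 19.9%. The spread within each LPS group was wide.

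For Gsdmd the longer exon adds 111 coding bases, that is 37 codons, and made up 78.3 to 99.4% (median 93.1%) in mock-treated and 71.4 to 83.9% (median 75.6%) in LPS-treated libraries (log2 -1.67 ± 0.30, adjusted p = 0.00332). In TLR4-K730R cells the shares were 99.2, 98.9 and 99.4% without and 71.4, 71.95 and 75.7% with LPS. In TLR4-WT they were 86.2, 81.5 and 96.6% and then 74.3, 72.6 and 79.1%, and in TLR4-K810R 93.1, 91.1 and 78.3% and then 81.2, 83.9 and 75.6%. The treatments were apart in TLR4-WT and TLR4-K730R and overlapped in TLR4-K810R.

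**Figure D4:**
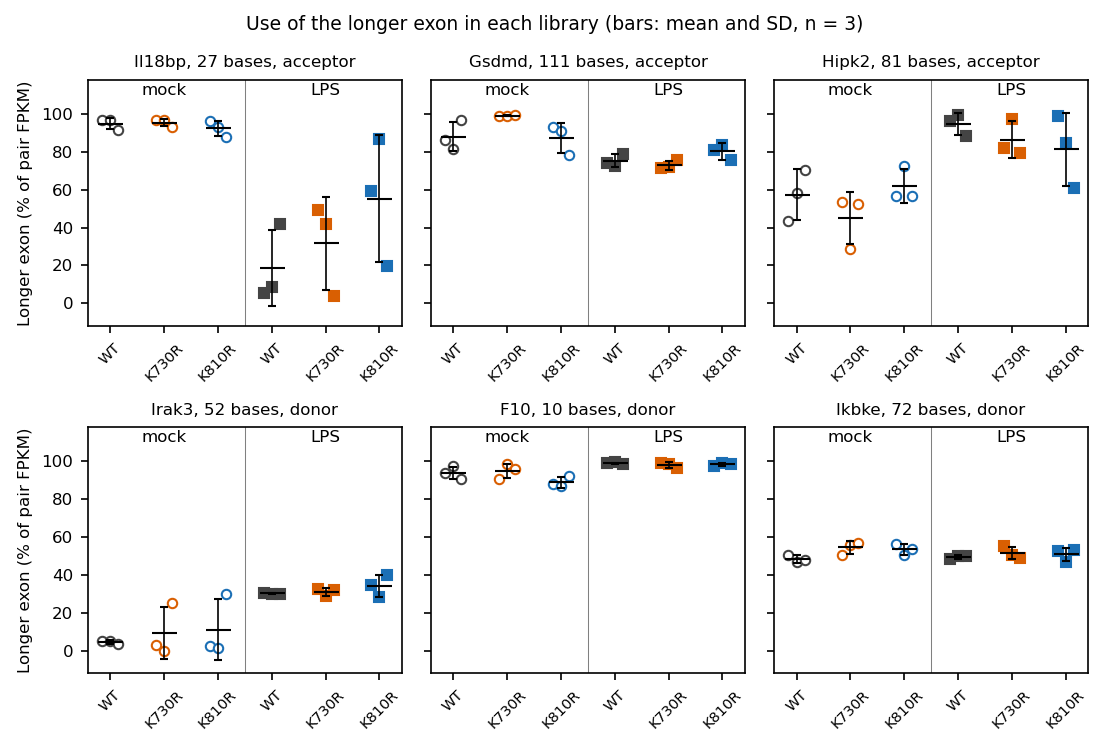
Share of the longer exon in the summed FPKM of the pair (vertical axis, %) in each library for 6 pairs, by genotype (horizontal axis) and treatment; points are libraries and bars show the mean and SD of 3. The share of Il18bp is above 88% in every mock-treated library and spreads from 3.71 to 87.0% with LPS, the LPS values of Irak3 lie near 30%, and Ikbke stays near 50% in all groups.

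Further called pairs overlapped between treatments. Hipk2, a nuclear kinase, used the form with 81 more coding bases at 29.0 to 72.3% (median 56.8%) in mock-treated and 60.8 to 99.5% (median 88.3%) in LPS-treated cells (log2 2.13 ± 0.42, adjusted p = 0.00629). F10 encodes coagulation factor X, and its form with 10 more bases, which shifts the frame, was at 86.8 to 98.3% (median 92.1%) and then at 96.3 to 99.4% (median 98.8%, adjusted p = 0.000561), while the pair rose from a median of 58.5 to 355 FPKM. Both were called only with the fixed pseudocount, at an adjusted p of 0.0254 each with the offset. These and the following pairs were named after their values were seen, because all but 1 of the called pairs overlapped.

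Fcgr2b, the inhibitory Fc receptor, had a median share of the longer form of 96.5% in mock-treated and 99.2% in LPS-treated cells (adjusted p = 0.000151, 0.379 with the offset). For Casp4, the caspase that senses intracellular LPS, the medians were 92.2% and 100% (adjusted p = 0.000219, 0.597 with the offset). For Bach1, a heme-responsive repressor, the form with 247 more bases went from a median of 100% to 79.1%. In Stab1, a scavenger receptor, the form with 222 more bases went from 0.0183% to 24.6%, with 2 TLR4-K810R mock libraries at 16.5 and 14.3% and 1 TLR4-K810R LPS library at 0.0351%. Bach1 and Stab1 were called with the pseudocount and not with the offset. They are given with no p, because 1 exon of each pair met the exon minimum through LPS-treated libraries. Among mock-treated libraries the longer Bach1 form was at 100% except in the first TLR4-K730R one (78.3%). The longer Stab1 form was at 0.0414% or less in mock-treated libraries other than the 2 named.

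Within the genotypes, limma called 7 pairs between LPS and mock in TLR4-K730R (0.646%), 2 in TLR4-K810R (0.185%) and 0 in TLR4-WT. It called 0 pairs between either mutant and TLR4-WT, with or without LPS, and 0 for the difference of the LPS responses.

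The second set of comparisons asked whether the TLR4 substitutions changed exon ends. With limma, 0 of the 5338 exons passed between TLR4-K730R and TLR4-WT or between TLR4-K810R and TLR4-WT, mock-treated or LPS-treated, and 0 passed for the difference between the LPS responses. At an unadjusted p below 0.05 there were 268 exons for TLR4-K730R and 267 for TLR4-K810R in mock-treated cells, 211 and 262 in LPS-treated cells, and 229 and 226 for the LPS responses. Among all splice events the share called was 0 in the mock-treated comparisons. It was 0.00426% for TLR4-K730R and 0.00851% for TLR4-K810R in LPS-treated cells, and 0.00426% for each difference of responses.

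The exon with the smallest p between mutant and wild type was an 89-base non-coding exon of Cflar (chr1:58713571-58713659, plus strand, in 3 GENCODE transcripts). Cflar encodes c-FLIP, an inhibitor of caspase-8 activation, and rose from a median of 19.7 to 39.1 FPKM with LPS. The ratio was 0.328, 0.733 and 0.51 in TLR4-WT mock libraries and 0.00102, 0.000496 and 0.00138 with LPS. It was 0.61, 0.689 and 0.312 in TLR4-K810R mock libraries and 0.000518, 0.00245 and 0.0014 with LPS. In TLR4-K730R it was 0.456, 0.533 and 0.277 without and 0.23, 0.408 and 0.204 with LPS. The exon was near 0 in 6 LPS-treated libraries and at 0.204 or more in the 3 of TLR4-K730R.

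The difference between TLR4-K730R and TLR4-WT with LPS was 3.57 ± 0.43 on the log2 scale (adjusted p = 0.012), just over the threshold, and 2.65 (adjusted p = 0.00752) with the scaling offset. The difference of the LPS responses was 3.86 ± 0.60 (adjusted p = 0.206), and 2.91 (adjusted p = 0.0946) with the offset, so it did not pass in either fit. The LPS effect over all 3 genotypes was -3.31 ± 0.25 (adjusted p = 4.99e-06), within TLR4-WT -4.47 ± 0.43 (adjusted p = 0.000553) and within TLR4-K810R -4.85 ± 0.43 (adjusted p = 7.83e-05).

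Ankrd28, a regulatory subunit of protein phosphatase 6, had a 51-base event (chr14:31780165-31780215, minus strand) that matches no GENCODE exon at both ends and was not listed in any of the 9 mock-treated libraries. With LPS the ratio was 0.332, 0.238 and 0.377 in TLR4-WT and 0.329, 0.482 and 0.689 in TLR4-K730R, and the event was not listed in the 3 TLR4-K810R libraries. The gene was low throughout, at 2.37 to 5.04 FPKM. The fitted log2 difference between LPS and mock was 1.20 ± 0.15 for TLR4-WT, 1.61 ± 0.15 for the K730R line and 0.68 ± 0.15 for the K810R line, given with no p because the event met the minimum of 1 FPKM only in LPS-treated libraries. The value for TLR4-K810R, where the event was never listed, comes from the pseudocount and the gene level alone. Between LPS-treated TLR4-K810R and wild-type cells the fitted difference was -0.76 ± 0.15 with the pseudocount and -2.85 with the scaling offset, again with no p, since the event met the minimum only in TLR4-WT and TLR4-K730R libraries.

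**Figure D5:**
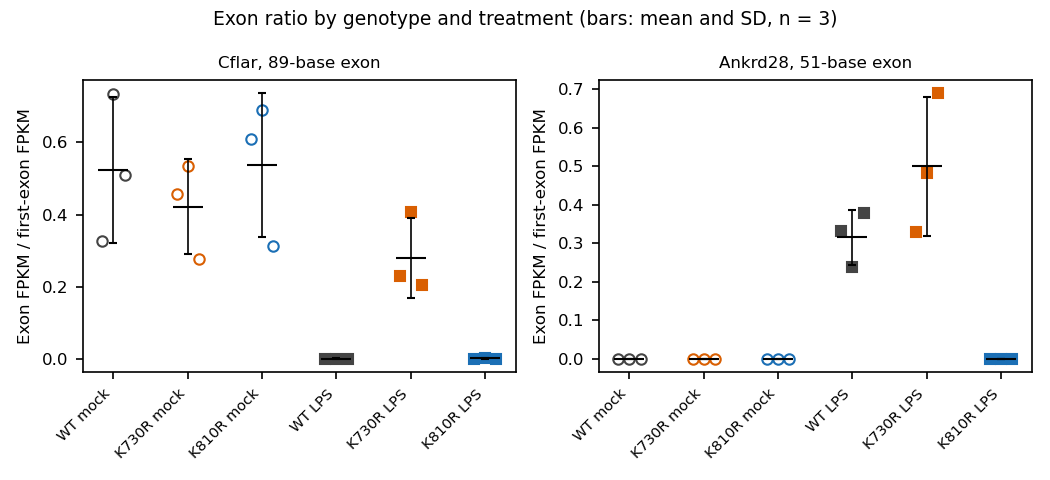
Exon ratio (vertical axis) of the Cflar 89-base exon and the Ankrd28 51-base event in each library by genotype and treatment (horizontal axis); points are libraries and bars show the mean and SD of 3. With LPS the Cflar exon is at 0.204 to 0.408 in TLR4-K730R and at most at 0.00245 in the other genotypes, and the Ankrd28 event is not listed in the 3 TLR4-K810R libraries.

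The other exons with the smallest p in these comparisons did not pass either. In mock-treated cells the 235-base exon of Med13, a Mediator kinase module subunit, had ratios of 0.78, 0.755 and 0.875 in TLR4-K730R and 1 in all 15 other libraries (adjusted p = 0.0517 against TLR4-WT). In these TLR4-K730R libraries the exon equalled the last-exon sum (4.94, 4.41 and 5.46 FPKM), below the first-exon sum (6.33, 5.84 and 6.24 FPKM). A 100-base event of Fuca2, a secreted fucosidase, was at 0.0614, 0.127 and 0.0692 in TLR4-WT mock libraries and not listed in the 6 mock libraries of the mutants, given with no p because it reached 1 FPKM only in these 3 TLR4-WT libraries and 1 other. The 184-base exon of Tmed1, a cargo receptor of the early secretory pathway, was at 0.925, 0.898 and 0.886 in TLR4-K810R mock libraries and at 0.996 or more in the other groups (adjusted p = 0.0835). With LPS, the 111-base Tpra1 exon was at 0.658, 0.708 and 0.642 in TLR4-K730R against the TLR4-WT values given above (log2 0.55 ± 0.09, adjusted p = 0.0852), and the 471-base exon of Fbxl8 differed by -0.28 ± 0.04 (adjusted p = 0.0745).

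A 525-base event of Ahnak was at 0.0471, 0.0979 and 0.0649 in TLR4-WT mock and 0 in the 3 TLR4-K810R mock libraries (adjusted p = 0.213). The 291-base Irf7 exon was higher in TLR4-K730R mock (0.704, 0.709 and 0.0561) than in TLR4-WT mock (0.025, 2.73e-06 and 0), where the gene stood at 6.86, 8.82 and 28.7 against 80.3, 74.6 and 117 FPKM. No p is given for it, since it reached 1 FPKM only in these 3 TLR4-K730R libraries and 1 TLR4-WT mock library. In these groups the exon ratio and the gene level moved in opposite directions.

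With LPS, TLR4-K810R had low ratios of the 158-base exon of Btbd10 (0.175, 0.000284 and 0.000298, against 0.397, 0.567 and 0.713 in TLR4-WT, adjusted p = 0.153). A 360-base exon of Tufm, the mitochondrial translation elongation factor, was not listed in TLR4-K810R and was at 0.284, 0.506 and 0.184 in TLR4-WT (adjusted p = 0.177). A 69-base event of Casp1, the inflammasome caspase, was at 0.42, 0.0941 and 0.114 in TLR4-K810R and not listed in TLR4-WT, given with no p because it reached 1 FPKM only in these 3 libraries and 1 other. Tufm was also not listed in the 3 TLR4-K810R mock libraries.

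For the effect of LPS in TLR4-K810R relative to wild type, the smallest p-values belonged to Sppl2b, Fuca2 and Eps15. Sppl2b is an intramembrane protease with a 78-base coding exon. Its ratio was 0.405, 0.724 and 0.594 in TLR4-WT mock, 0.795, 0.159 and 0.114 in TLR4-WT LPS, 0.0485, 0.0312 and 0.119 in TLR4-K810R mock and 0.935, 0.82 and 1.23 in TLR4-K810R LPS libraries. Eps15, an endocytic adaptor, had a 90-base exon with the opposite pattern, at 0.606, 0.573 and 0.516, then 0.796, 0.943 and 0.644 in TLR4-WT, and at 0.852, 0.674 and 0.941, then 0.27, 0.481 and 0.3 in TLR4-K810R. The differences of Sppl2b and Eps15 had an adjusted p of 0.552.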

How the data were processed

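Total RNA of the 18 cultures was sequenced by a company on an Illumina platform. The authors deposited 1 table of splicing events per library with an FPKM value for each event. The aligner, the estimator of these FPKM values and the sequencing depth are not given in the sources used here. The submitters' notes name a human build, but the coordinates match GENCODE exons of the mouse build GRCm38, which is used here. Because FPKM values hold no counts, no interval for counting error was possible, and the adjusted p threshold of 0.01 follows the study's methods.

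Exon ratios were formed as log2(exon FPKM + 1) minus log2(summed first-exon FPKM of the gene + 1) and tested with limma 3.58.1 (intensity trend, R 4.3.3) in 1 fit over all 6 groups, with Benjamini-Hochberg adjustment over 23500 events. The mean comparison averages the LPS minus mock difference of the 3 genotypes. Exon pairs were tested likewise on log2(longer + 1) minus log2(shorter + 1). An exon entered at 1 FPKM or more in at least 3 libraries, in a gene at 2 FPKM or more in all 18. A pair entered at a sum of 2 FPKM or more in all 18, with each of its exons at 1 FPKM or more in at least 3. The fits were tested on simulated data. The exons named for the mean comparison are the 12 with the largest rises and the 12 with the largest falls among called ones whose 9 LPS-treated libraries do not overlap the 9 mock-treated ones, 1 per gene and direction. For the other comparisons they are the 5 in each direction, or the 3 with the smallest p where none was called, and for pairs the 10 in each direction. One exon that the rule names is not reported here. Called members of the gene lists and 6 exons of TLR4 signalling genes were added. The exons, the gene lists and the tests were chosen with earlier results of these data known. Replicate numbers were shared by the groups but did not pair the libraries.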

Additional observations from a re-analysis of the deposited data

Results flagged for a closer look

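With LPS the 51-base event of Ankrd28 was listed in all 3 TLR4-WT libraries (ratios of 0.332, 0.238 and 0.377) and in none of the 3 TLR4-K810R libraries, and it was not listed in any mock-treated library. The effect of LPS in TLR4-K810R relative to wild type was under the threshold in 1 of the fits, but the event reached 1 FPKM only in LPS-treated TLR4-WT and TLR4-K730R libraries and so entered through groups where it is present. Its p is therefore no support for a difference. On log2 of the ratio plus 0.05, an offset chosen after seeing the data, it was -2.85 (adjusted p = 0.000577, limma over all splice events). Between the LPS-treated cells alone the offset gave -2.85 as well, against -0.76 ± 0.15 with the pseudocount. For the effect of LPS, the fixed pseudocount of 1 FPKM gave -0.52 ± 0.22 (SE) with an adjusted p of 0.989. The gene lay at 2.37 to 5.04 FPKM in the 18 libraries, near the minimum of 2 FPKM for the test.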

How the results depend on the processing

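The call of 75 exons for the mean LPS comparison became 27 with a pseudocount of 0.1 FPKM, 21 with the offset of 0.05 on the ratio (chosen after seeing the data), 34 over exons listed in all 18 libraries, 42 with last exons as the denominator, 116 with a gene mean of at least 5 FPKM in place of the minimum, and 1075 without the filter on exon FPKM. It was 51 with the replicate number as a block, and 54 to 68 when single libraries were left out. For TLR4-WT the 6 calls became 13 with its groups alone, 12 with the gene mean and 348 without the exon filter, and 4 to 8 when leaving out libraries. For TLR4-K730R the 15 became 6, 5, 7 and 7 with the pseudocount of 0.1, the offset, exons in all libraries and last exons, 3 with its groups alone and 397 without the exon filter. They ran from 6 to 14 when leaving out libraries, with 6 and 7 without the first and the second TLR4-K730R LPS library. For TLR4-K810R the 6 became 2 with the pseudocount of 0.1, 2 with the offset, 18 with the gene mean and 245 without the exon filter, and 6 to 8 when leaving out libraries. The cause of these changes was not tested.

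The 0 calls between genotypes became 1 for TLR4-K730R against TLR4-WT with LPS under the pseudocount of 0.1, the offset and the replicate block. They became 1 between LPS-treated TLR4-K810R and wild-type cells and for the TLR4-K810R response under the groups alone, the pseudocount of 0.1 and the offset, and 1 for the TLR4-K730R response under the groups alone and the pseudocount of 0.1. Leaving out single libraries gave 0 to 4 calls for TLR4-K730R against TLR4-WT in mock-treated cells, 0 to 1 with LPS, and 0 to 2 for TLR4-K810R in each treatment and for both responses. The 4 calls arose without the third TLR4-K730R mock or the first TLR4-WT mock library.

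The 31 pairs became 8 with the pseudocount of 0.1, 2 with the offset, 12 with both exons in all libraries and 22 with the replicate block. Leaving out single libraries gave 17 to 32, with 17 without the second TLR4-WT LPS and 19 without the second TLR4-K730R mock library. Deviations of same-numbered libraries from their group means correlated at -0.142 to 0.106 (other numbers -0.128 to 0.174), so the numbers were not taken to pair the libraries, and apart from the 1 call between LPS-treated TLR4-K730R and wild-type cells the block moved no count of calls by more than 1.5 times.

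Some signs turned. The Cd40 difference was 0.60 with the offset and 0.37 with the pseudocount of 0.1. With last exons as the denominator the differences of Ikbke were 0.0021 (97-base exon) and 0.020 (141-base exon) and that of Ikbkg was 0.095, and leaving out single libraries gave -0.16 to 0.078 for Ikbkg, turning its sign without the third TLR4-K810R LPS library. None of these 3 Ikbke and Ikbkg exons was called. The depth behind the FPKM values is unknown, so exons at low levels cannot be given a counting error.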
